A study of Mus musculus with 6 samples.

Results

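The tricarboxylic acid (TCA) cycle enzymes described here are 9 genes of the mitochondrial cycle outside succinate dehydrogenase, chosen by name: Cs, Idh2, Idh3a, Idh3b, Ogdh, Sucla2, Suclg1, Fh1 and Mdh2. All 9 were found among the 31017 genes of the table, and all 9 were among the 14268 genes with enough counts to be tested. The rule is a list of names and sets no threshold on a measured value. RNA was sequenced from mouse Th17 cells differentiated in culture, the subset of CD4 T cells that secretes interleukin 17. There were 3 control libraries of wild-type genotype (Control) and 3 libraries of cells deficient in RTF1 (KO). RTF1 accompanies RNA polymerase II along transcribed genes and promotes ubiquitination of histone H2B. The allele, the way it was deleted, the strain, the age of the mice and the culture conditions are not given in the sources used here. Nothing states that libraries of a group came from separate mice, so p-values measure the spread between these libraries, which may in part be technical.

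The cycle takes the acetyl group of acetyl-CoA, made from pyruvate or fatty acids, joins it to oxaloacetate as citrate, and oxidizes it stepwise back to oxaloacetate. The electrons go to the respiratory chain as NADH and as reduced succinate dehydrogenase, and intermediates leave for the synthesis of lipids, amino acids and nucleotides. Activated T cells run the cycle beside rapid glycolysis. Some intermediates also act in the nucleus: 2-oxoglutarate is a substrate of histone and DNA demethylases, which succinate and fumarate inhibit.

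Total counts ranged from 16489813 to 51271226 per library. Rtf1 fell from 91.2 ± 2.84 to 33.9 ± 10.03 CPM (counts scaled to a common library total with TMM factors; SD, n = 3), so its RNA was reduced but present in the libraries labelled KO. Markers of T helper and Th17 cells were present in each library and summed to 2906 to 3586 CPM in control and 1818 to 2296 in KO. These markers did not move as 1 group: Cd3e (log2 fold change 0.71) and Cd3g (0.72) were called higher, and Cd4 (−0.94), Lck (−0.60), Il17a (−1.65), Il17f (−1.28) and Il23r (−1.35) lower, of 9 tested. The 6 myeloid markers summed to 2.58 to 5.20 CPM in control and 16.9 to 28.5 in KO. Of these, Cd68 and Csf1r were called higher, Cd14 was not called, and Lyz2, Itgam and Adgre1 were too low to test. Cd68 alone held 13.3 to 25.3 CPM in KO. Lyz2 had 0, 2 and 4 counts in control replicates 1, 2 and 3 and 46, 11 and 8 in the KO replicates. Itgam and Adgre1 had at most 5 counts in any library. Summed B cell markers stayed at or under 18.1 CPM in each library and those of CD8 and NK cells at or under 11.8, with Ncr1 and Klrb1c at 0 and Eomes called higher. Erythroid markers reached at most 2.92 CPM and fibroblast markers 0.797. The part of these low levels in the results was not tested. In bulk RNA, fewer cells of a kind and less RNA per cell cannot be told apart.

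Across the cycle, 5 of the 9 enzymes fell in KO and none rose. Idh2 fell most, to 26.2% of the control level (95% interval 18.8% to 36.6%). Suclg1 stood at 59.9%, Cs at 66.5%, Fh1 at 72.1% and Ogdh at 76.5% of control. Idh3a, Idh3b, Sucla2 and Mdh2 were not called. A gene was called at an adjusted p-value under 0.05 in edgeR's quasi-likelihood test over all tested genes. By that rule 22.9% of all tested genes were called lower, 23.2% higher and 46.1% in either direction. The median log2 fold change of the 9 enzymes was −0.46, and that of all tested genes was 0.013. The groups did not overlap for 5 of the 9, all lower in KO. Over all tested genes this held for 57.9%, with 28.0% lower and 29.9% higher in KO. A larger absolute change than that of Idh2 was found in 7.29% of tested genes. For the other called enzymes this share ran from 37.2% (Suclg1) to 61.7% (Ogdh).

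**Figure D1:**
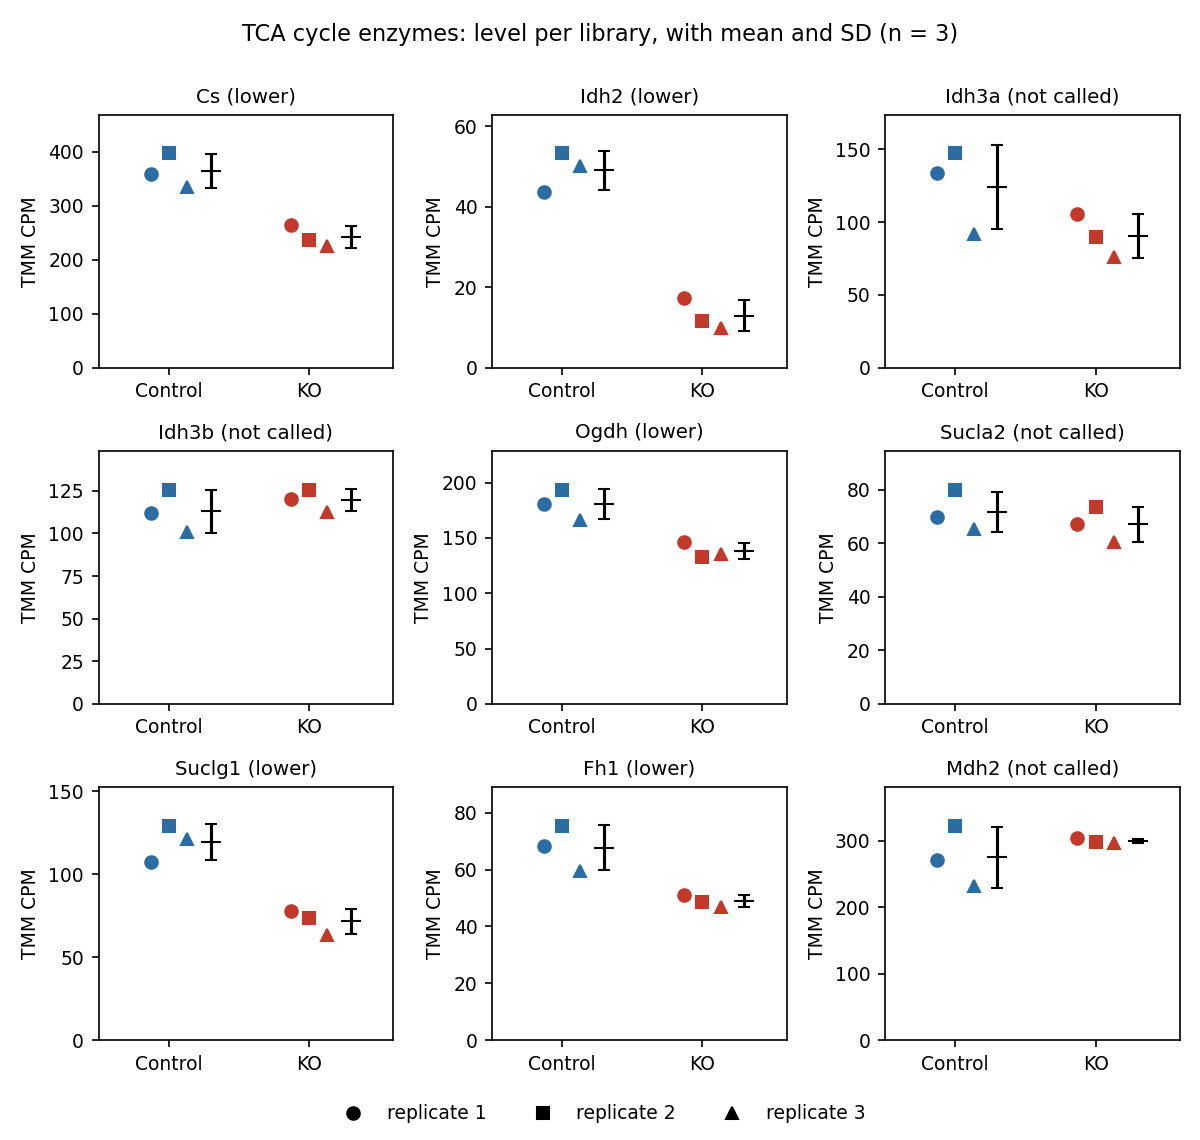
Level of each of the 9 enzymes in TMM-scaled CPM, with 1 point per library, the replicate number as the symbol, and the mean with its SD (n = 3) beside each group. Each axis starts at 0; Control (blue) and KO (red) do not overlap for Cs, Idh2, Ogdh, Suclg1 and Fh1, and they overlap for Idh3a, Idh3b, Sucla2 and Mdh2.

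Promoter sequences were read for the enzymes that fell most clearly, with Idh3b shown for comparison as an enzyme that was not called. RefSeq windows (GRCm38.p6) matched 8 of the 9 enzymes, and Idh3a had no entry. Sequences below run 5′ to 3′ on the gene's own strand and stop before both the RefSeq start and the outermost GENCODE start. Capitals mark matches, on either strand, to GGGCGG (the SP1 motif) or to ACGTG or GCGTG (the core bound by HIF factors). Some matches counted below lie in bases left out of the print. These are the SP1 matches of Idh2, 38 and 18 bases before the RefSeq start, and a HIF core match of Suclg1 at 108 bases. Idh2 is at chr7:80115393-80115600, Suclg1 at chr6:73248255-73248381, Cs at chr10:128337477-128337726, Fh1 at chr1:175625636-175625885 and Idh3b at chr2:130284548-130284701.
Idh2: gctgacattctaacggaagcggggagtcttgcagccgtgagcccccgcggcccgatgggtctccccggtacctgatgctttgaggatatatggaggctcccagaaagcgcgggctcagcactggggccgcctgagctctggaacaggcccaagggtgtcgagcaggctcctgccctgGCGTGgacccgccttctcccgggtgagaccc
Suclg1: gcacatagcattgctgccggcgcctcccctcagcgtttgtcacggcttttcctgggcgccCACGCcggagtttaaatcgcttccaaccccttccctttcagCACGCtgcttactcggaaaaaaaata
Cs: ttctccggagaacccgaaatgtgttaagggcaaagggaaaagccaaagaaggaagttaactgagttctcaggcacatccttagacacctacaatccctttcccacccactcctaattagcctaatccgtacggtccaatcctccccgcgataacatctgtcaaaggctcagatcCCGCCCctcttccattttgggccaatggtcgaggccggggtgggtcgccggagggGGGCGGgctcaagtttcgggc
Fh1: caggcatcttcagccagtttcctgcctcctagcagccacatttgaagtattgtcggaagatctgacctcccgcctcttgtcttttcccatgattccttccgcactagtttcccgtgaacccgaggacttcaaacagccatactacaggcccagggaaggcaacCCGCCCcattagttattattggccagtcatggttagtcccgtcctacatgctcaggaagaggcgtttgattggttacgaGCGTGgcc
Idh3b: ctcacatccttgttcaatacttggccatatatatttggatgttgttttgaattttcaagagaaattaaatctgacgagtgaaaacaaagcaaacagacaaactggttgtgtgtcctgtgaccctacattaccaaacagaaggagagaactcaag
A gene was counted if the 250 bases before any of its RefSeq starts held a match. SP1 letters were found in 6 of the 8 enzymes and in 35.4% of all 27025 genes with a window. HIF core letters were found in 5 of the 8 and in 41.5%. The SP1 matches belonged to Cs, Fh1, Idh2, Mdh2, Ogdh and Sucla2, and the HIF core matches to Fh1, Idh2, Mdh2, Ogdh and Suclg1. Enzymes with and without a call thus held each motif. Idh3b held neither and does not stand for the other uncalled enzymes. Of those, Mdh2 held both motifs and Sucla2 held SP1 letters. The only Sucla2 window, however, precedes a RefSeq start at 73552786. That start lies inside the gene, whose outermost GENCODE start is 73525319, so the match is not at its 5′ end. An E-box (CACGTG, which contains the HIF core ACGTG) was found in 1 of the 8, Ogdh, and in 6.86% of genes. In Ogdh it lay only before the RefSeq starts 6292170, 6292558 and 6292579, which are inside the gene, downstream of its outermost GENCODE start (6291633). No window of the 8 held the palindromic NRF1 motif (in 0.877% of genes) or CCGGAAGT (an ETS motif, in 3.23%), each searched on both strands without mismatch. A match describes letters only.

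Citrate synthase, encoded by Cs (chromosome 10, 128337734 to 128362479, plus strand, GRCm38), starts the cycle by joining acetyl-CoA to oxaloacetate. Control replicates 1, 2 and 3 held 359, 397 and 335 CPM of Cs, and KO replicates 1, 2 and 3 held 264, 236 and 226 CPM. Every KO library lay below every control library. Cs fell by 0.59 on the log2 scale (SE 0.122, edgeR adjusted p = 0.00487), from a mean of 364 ± 31.1 to 242 ± 19.7 CPM (SD, n = 3).

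Isocitrate is oxidized to 2-oxoglutarate in mitochondria by separate enzymes, the NADP-dependent IDH2 and the NAD-dependent IDH3. IDH2 supplies mitochondrial NADPH and can also run in reverse, carboxylating 2-oxoglutarate. Idh2 lies on chromosome 7 (80094846 to 80115392, minus strand, GRCm38). Its level was 43.7, 53.2 and 50.1 CPM in control replicates 1, 2 and 3 and 17.2, 11.5 and 9.81 CPM in KO replicates 1, 2 and 3. The highest KO library thus lay well below the lowest control library. The log2 fold change was −1.93 (SE 0.211, edgeR adjusted p = 0.000342), and means were 49.0 ± 4.85 and 12.9 ± 3.86 CPM (SD, n = 3). Leaving out 1 library at a time gave −2.20 (without KO replicate 1) to −1.77 (without KO replicate 3), called in each of the 6 fits. Only 344 of the 14268 tested genes had a lower fold change.

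IDH3 is built of a catalytic alpha subunit (Idh3a) and of beta and gamma subunits (Idh3b and Idh3g), and these did not move alike. Idh3a, on chromosome 9 (54586334 to 54604661, plus strand), held 134, 147 and 91.6 CPM in control replicates 1, 2 and 3 and 106, 89.9 and 76.05 CPM in the KO replicates in the same order. Control replicate 3 lay within the KO range, and the gene was not called (log2 fold change −0.46, 95% interval −0.89 to −0.022, edgeR adjusted p = 0.0793). Idh3a was called with the replicate number as a block (−0.44, adjusted p = 0.0111), without control replicate 3 (−0.69, adjusted p = 0.00473), without a filter on low counts (−0.47, adjusted p = 0.0479), and without replicate 3 of both groups (−0.53, adjusted p = 0.01045). Idh3b, on chromosome 2 (130279309 to 130284547, minus strand), ran from 100.8 to 126 CPM in control and from 113 to 126 in KO. Its log2 fold change was 0.083 (95% interval −0.18 to 0.35), which turned to −0.053 without control replicate 3. Idh3g, on the X chromosome, fell by 0.60 on the log2 scale (SE 0.120, adjusted p = 0.00406), with group means of 90.01 ± 10.5 and 59.3 ± 3.40 CPM (SD, n = 3).

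The 2-oxoglutarate dehydrogenase complex turns 2-oxoglutarate into succinyl-CoA. Its first component, Ogdh, is on chromosome 11 (6291633 to 6356642, plus strand). Ogdh held 181, 194 and 167 CPM in control replicates 1, 2 and 3 and 146, 133 and 136 CPM in KO replicates 1, 2 and 3. The groups did not overlap, and Ogdh fell by 0.39 on the log2 scale (SE 0.110; adjusted p = 0.0191, edgeR). The call was lost without KO replicate 2 (−0.35, adjusted p = 0.0859) and without KO replicate 3 (−0.37, adjusted p = 0.0672). The other components of the complex tested here, Dlst and Dld, were not called. Dlst, the succinyltransferase core, stood at 169 ± 25.02 and 201 ± 2.08 CPM (SD, n = 3; log2 fold change 0.25, 95% interval −0.043 to 0.55). Dld, the dehydrogenase shared with the pyruvate complex, stood at 145 ± 13.2 and 144 ± 14.8 CPM (−0.012). Scaled by library size alone, the value for Dld was 0.078.

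Succinyl-CoA synthetase makes ATP or GTP while releasing succinate. It pairs 1 alpha subunit, Suclg1, with a beta subunit that sets the nucleotide: Sucla2 for ATP or Suclg2 for GTP. Suclg1, on chromosome 6 (73248382 to 73276911, plus strand), held 107.5, 129 and 121 CPM in control replicates 1, 2 and 3 and 77.9, 73.6 and 63.2 CPM in KO replicates 1, 2 and 3. The groups did not overlap, and Suclg1 fell by 0.74 on the log2 scale (SE 0.124, edgeR adjusted p = 0.00194). Sucla2, on chromosome 14 (73525319 to 73596142, plus strand), ran from 65.4 to 79.98 CPM in control and from 60.4 to 73.3 CPM in KO. These ranges overlapped, with a log2 fold change of −0.098 (95% interval −0.38 to 0.19). Suclg2 held 61.1, 68.9 and 70.1 CPM in control replicates 1, 2 and 3 and 36.9, 31.6 and 29.03 CPM in the KO replicates. That gene fell by 1.04 on the log2 scale (SE 0.131, adjusted p = 0.000597). Suclg2 shares 15.96% of its 50-base stretches with Gm15163, so part of its count is uncertain.

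Succinate is oxidized to fumarate by succinate dehydrogenase, of whose 4 subunits 1 was called. Sdha, the flavoprotein subunit, was called higher, by 0.34 on the log2 scale (SE 0.113; adjusted p = 0.0344, edgeR). Its group means were 246 ± 21.03 and 312 ± 6.33 CPM (SD, n = 3). The call of Sdha was lost without control replicate 1 (adjusted p = 0.236), control replicate 3 (0.193), KO replicate 1 (0.0861), KO replicate 2 (0.112) or KO replicate 3 (0.0812), with DESeq2 size factors (0.0558), without a filter on low counts (0.0766) and without replicate 3 of both groups (0.106). Sdhb (−0.11), Sdhc (0.21) and Sdhd (0.28) were not called. Without control replicate 2, Sdhc (0.34, adjusted p = 0.0389) and Sdhd (0.42, adjusted p = 0.0204) were called, and Sdhb turned to 0.0097. Of the assembly factors, Sdhaf2, which helps attach the flavin to Sdha, rose from 40.5 ± 5.81 to 77.2 ± 8.69 CPM (0.93, adjusted p = 0.00134). Sdhaf3 fell from 6.81 ± 0.956 to 3.38 ± 0.785 CPM (−1.01, adjusted p = 0.0118), a call lost without KO replicate 2 (adjusted p = 0.0532). In all, 2 of the 8 genes of this list were called higher and 1 lower, with a median log2 fold change of 0.20.

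Fumarase, encoded by Fh1 on chromosome 1 (175600374 to 175625635, minus strand), hydrates fumarate to malate. Fh1 held 68.3, 75.4 and 59.5 CPM in control replicates 1, 2 and 3 and 51.2, 48.4 and 46.9 CPM in KO replicates 1, 2 and 3. The lowest control library, replicate 3, still lay above all KO libraries. Fh1 fell by 0.47 on the log2 scale (SE 0.122, edgeR adjusted p = 0.0129), a call that was lost without KO replicate 2 (−0.46, adjusted p = 0.055). Malate dehydrogenase, which closes the cycle by restoring oxaloacetate, is encoded by Mdh2 on chromosome 5 (135778480 to 135790398, plus strand). Mdh2 held 271, 323 and 232 CPM in control replicates 1, 2 and 3 and 304, 298 and 297 CPM in KO replicates 1, 2 and 3. The KO libraries fell inside the control range, and the log2 fold change was 0.12 (95% interval −0.19 to 0.43). Without control replicate 3 it was −0.049. The intervals of Idh3b, Sucla2 and Mdh2 bound a change in these enzymes but do not show that there was none.

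**Figure D2:**
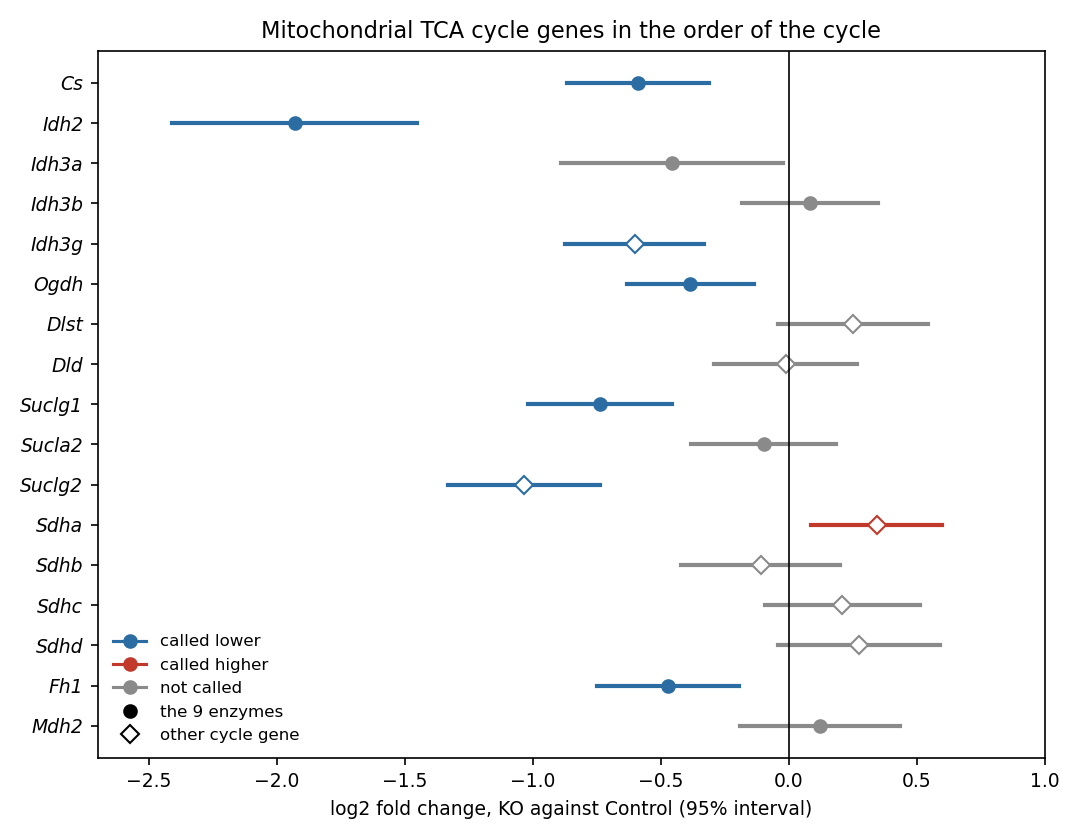
Log2 fold change of KO against Control for cycle genes in the order of the cycle, with 95% intervals from edgeR's quasi-likelihood fit; filled circles are the 9 enzymes, open diamonds the other cycle genes, and colour gives the call. Intervals of the called genes Cs, Idh2, Idh3g, Ogdh, Suclg1, Suclg2 and Fh1 lie below 0, that of Sdha lies above 0, and Idh2 stands lowest at −1.93.

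The share of each enzyme's 50-base stretches found in transcripts of another gene was 2.01% for Cs (mainly its relative Csl), 0.258% for Suclg1 and 0 for the other 7. Exons of Idh3b overlap Nop56 over 0.146% of their bases, and no other of the 9 overlaps an annotated exon of another gene. Read sharing with copies was therefore small for these enzymes.

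Ratios between genes within a library do not depend on how libraries are scaled, and 12 such ratios of counts were described. In 10 the groups did not overlap. Each of these 10 gave p = 0.1 in an exact permutation test, two-sided, n = 3 per group, the smallest value the design allows, and 0.12 after adjustment over the 12. No matching share over ratios of other gene pairs was computed. Among single tested genes the groups did not overlap for 57.9%. Several ratios set a called gene against an uncalled one, and genes recur between ratios, so the 10 are not separate results. The ratio of Idh2 to Idh1, its cytosolic counterpart, was 2.35, 2.71 and 3.11 for Control libraries 1 to 3, against 1.03, 0.599 and 0.475 for KO libraries 1 to 3. Idh1 itself was not called (18.1 ± 1.84 and 18.9 ± 1.98 CPM). It was named after its values were seen. Counts of Idh2 were thus above those of Idh1 in every control library, and below them in KO replicates 2 and 3. Idh2 per Idh3a went from 0.411 ± 0.118 to 0.140 ± 0.0197 (SD, n = 3).

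Within IDH3, the ratio of Idh3b to Idh3g went from 1.26 ± 0.0626 to 2.02 ± 0.0269, and that of Idh3a to Idh3b from 1.09 ± 0.159 to 0.756 ± 0.108 (SD, n = 3). For succinyl-CoA synthetase, counts of Sucla2 per count of Suclg2 were 1.14, 1.16 and 0.933 for Control libraries 1 to 3, against 1.82, 2.32 and 2.08 for KO libraries 1 to 3. The balance of beta subunit counts thus lay further toward the ATP-linked form in each KO library. Sucla2 per Suclg1 went from 0.602 ± 0.0566 to 0.938 ± 0.0685, and Suclg2 per Suclg1 from 0.559 ± 0.0233 to 0.454 ± 0.0226. The ratio of Ogdh to Dlst, components of the same complex, went from 1.07 ± 0.0845 to 0.685 ± 0.0386. Mdh2 per Cs, the neighbouring steps around oxaloacetate, went from 0.754 ± 0.0608 to 1.24 ± 0.0841, and Fh1 per Mdh2 from 0.247 ± 0.0121 to 0.163 ± 0.00525. The groups overlapped for Idh3a to Idh3g and for Mdh2 to its cytosolic counterpart Mdh1 (exact permutation p = 0.6 for each).

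**Figure D3:**
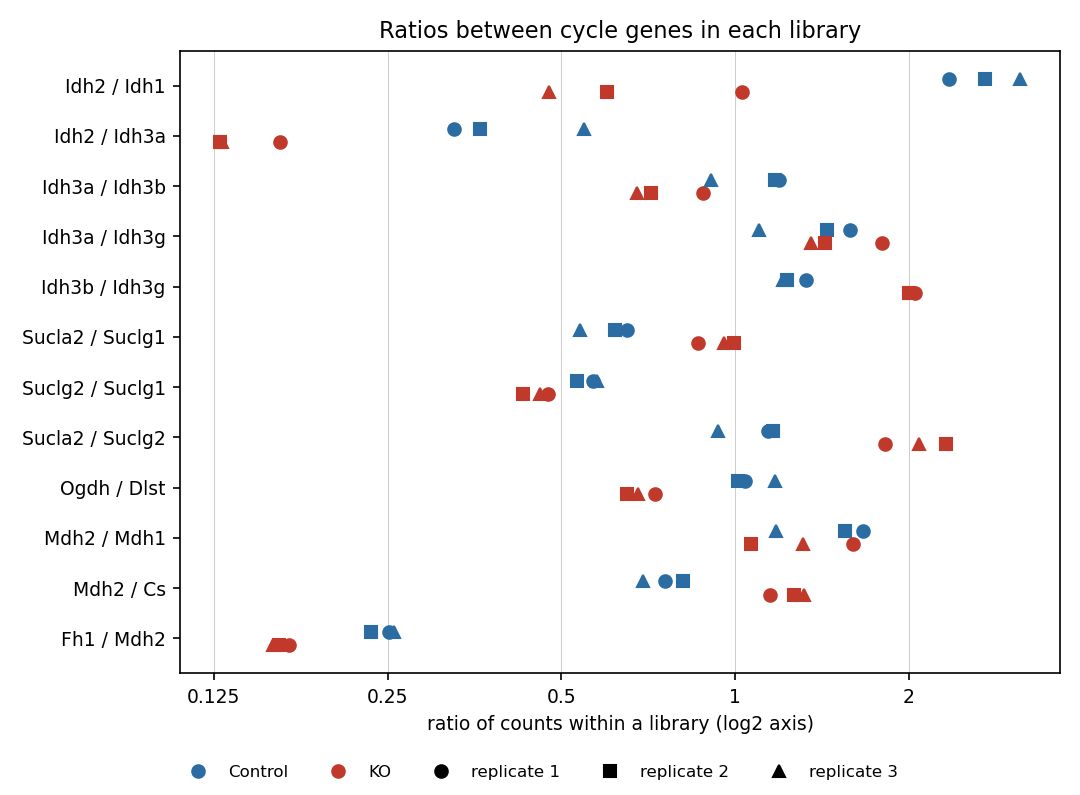
Ratio of the counts of 2 genes within each library, on a log2 axis, with Control in blue, KO in red and the replicate number as the symbol. Groups stand apart in 10 of the 12 ratios and overlap for Idh3a / Idh3g and Mdh2 / Mdh1; Idh2 / Idh1 lies between 2.35 and 3.11 in Control and between 0.475 and 1.03 in KO.

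To compare levels between enzymes, CPM were divided by the length of the exons of each gene in kilobases. Mdh2 was the most abundant on this scale in both groups, at 77.3 ± 12.8 CPM per kilobase in control and 84.1 ± 1.003 in KO (SD, n = 3), followed by Cs at 62.9 ± 5.38 and 41.8 ± 3.41. In control, Ogdh (33.05 ± 2.50) and Idh3b (33.0 ± 3.64) did not differ beyond their spread, nor did Suclg1 (25.9 ± 2.38) and Idh3a (24.5 ± 5.74). Fh1 (19.98 ± 2.35), Idh2 (18.9 ± 1.87) and Sucla2 (17.98 ± 1.88) came last. Their ranges overlapped, although Fh1 lay above Sucla2 within each control library. In KO, Idh2 stood alone at the lowest level, 3.79 to 6.64 CPM per kilobase, below the ranges of Fh1 (13.8 to 15.1) and Suclg1 (13.7 to 16.9), which did not differ beyond their spread. This order depended on the length used. With the longest transcript as length, control Idh3b (55.1 ± 6.08) lay above Ogdh (43.7 ± 3.30) without overlap. Control Sucla2 (32.2 ± 3.36) likewise lay above Fh1 (25.7 ± 3.02). In KO, Suclg1 (22.8 to 28.2) then lay above Fh1 (17.8 to 19.4), and Idh2 stayed lowest. As a share of the 9 enzymes summed on this scale, Idh2 went from 6.07% ± 0.734 to 1.93% ± 0.479, Cs from 20.1% ± 0.560 to 16.4% ± 0.541, and Mdh2 from 24.6% ± 1.30 to 32.9% ± 1.42. The summed CPM of the 9 ran from 1222 to 1524 in control and from 1027 to 1153 in KO. Without TMM factors these ranges overlapped. As a share of all counts, the 9 took 0.1181% to 0.144% in control and 0.1046% to 0.1186% in KO.

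Genes that feed and surround the cycle were taken from lists of pathway genes, and counts of calls are given against the 22.9% called lower and 23.2% called higher among all tested genes. Of the 5 listed cycle genes outside the 9 enzymes and succinate dehydrogenase, 2 were called lower (Idh3g and Suclg2) and none higher. The median log2 fold change of these 5 was −0.012, against −0.46 for the 9 enzymes. Pyruvate entry, made up of the carrier and the subunits of pyruvate dehydrogenase, had 1 of 6 genes called higher and none lower (median 0.0073). That gene was Mpc2, a subunit of the mitochondrial pyruvate carrier (33.01 ± 3.09 and 46.3 ± 1.75 CPM, log2 fold change 0.49, edgeR adjusted p = 0.0110). Its call was lost without control replicate 1 (adjusted p = 0.103) and without KO replicate 2 (0.0546). Pdha1 (156 ± 20.1 and 144 ± 16.1 CPM) and Pdhb (91.8 ± 11.1 and 108 ± 7.54 CPM) were not called. Pdha1 overlaps Map3k15 over 16.2% of its exonic bases, and Pdhb shares 11.4% of its stretches with Gm6123, so both are uncertain.

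Of the kinases that switch pyruvate dehydrogenase off, Pdk1 and Pdk3 were called lower, Pdk2 was not called and Pdk4 was too low to test. Pdk1 held 158, 175 and 197 CPM in control replicates 1, 2 and 3 and 43.9, 49.7 and 40.7 CPM in KO replicates 1, 2 and 3, with no overlap (log2 fold change −1.98, SE 0.131, edgeR adjusted p = 5.8e-05). Pdk3 fell from 80.9 ± 6.25 to 45.7 ± 4.60 CPM (−0.82, adjusted p = 0.00112). The 4 other tested kinases and phosphatase subunits were not called, and the median of the 6 was −0.22.

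Enzymes that feed intermediates into the cycle or drain them had 6 of 9 tested genes called lower, none higher and a median of −0.57. Pck2, the mitochondrial enzyme that makes phosphoenolpyruvate from oxaloacetate, held 83.8, 95.6 and 103 CPM in control replicates 1, 2 and 3 and 12.9, 12.2 and 10.2 CPM in KO replicates 1, 2 and 3. The log2 fold change of Pck2, −3.00 (SE 0.145; adjusted p = 3.1e-05, edgeR), was further from 0 than that of any of the 9 cycle enzymes. Gpt2, which makes 2-oxoglutarate and alanine from glutamate and pyruvate, fell from 41.7 ± 3.10 to 5.59 ± 0.825 CPM (−2.90, adjusted p = 3.9e-05). Gls2, a glutaminase, fell from 41.1 ± 2.89 to 14.2 ± 2.39 CPM (−1.53, adjusted p = 0.000251). Oat, which makes glutamate semialdehyde from ornithine, fell from 119 ± 20.01 to 62.03 ± 10.03 CPM (−0.94, adjusted p = 0.00216). Among the best counted genes of the list that were not called was Glud1 (341 ± 54.9 and 366 ± 53.2 CPM), which oxidizes glutamate to 2-oxoglutarate. Its log2 fold change turned from 0.10 to −0.076 without control replicate 1.

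Among cytosolic counterparts and carriers of cycle intermediates, 5 of 10 were called lower and none higher (median −0.29). Slc25a10, the dicarboxylate carrier, fell from 16.3 ± 4.11 to 5.89 ± 2.001 CPM (log2 fold change −1.47, edgeR adjusted p = 0.00362). Slc25a13, an aspartate and glutamate carrier, fell from 39.1 ± 7.30 to 17.2 ± 3.47 CPM (−1.18, adjusted p = 0.00178). Aco1, the cytosolic aconitase, fell from 74.2 ± 10.7 to 49.9 ± 4.27 CPM (−0.57, adjusted p = 0.00951). Acly, which cuts exported citrate to acetyl-CoA, fell from 531 ± 53.7 to 373 ± 5.23 CPM (−0.51, adjusted p = 0.00889). Mdh1 (189 ± 23.2 and 232 ± 45.3 CPM; 0.30, adjusted p = 0.168) and the oxoglutarate carrier Slc25a11 (82.9 ± 10.3 and 97.5 ± 8.94 CPM; 0.23) were not called. Under the replicate block Mdh1 passed the threshold (0.29, adjusted p = 0.0444).

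Enzymes of 2-hydroxyglutarate, itaconate and 2-oxoadipate had 2 of 5 tested genes called lower (median −0.45). Among them was D2hgdh, which oxidizes D-2-hydroxyglutarate to 2-oxoglutarate. D2hgdh went from 21.2 ± 4.56 to 13.7 ± 0.964 CPM (log2 fold change −0.63, edgeR adjusted p = 0.0189). The call was lost without KO replicate 2 (adjusted p = 0.0642) or KO replicate 3 (0.0634). Without replicate 3 of both groups D2hgdh shrank to −0.39 (adjusted p = 0.0881), and 17.8% of its stretches occur in Gm18666. Of the demethylases that use 2-oxoglutarate, 2 of 11 were called lower and none higher (median −0.064). Tet1, a DNA demethylase, fell from 7.66 ± 4.55 to 1.31 ± 0.419 CPM (−2.57, adjusted p = 0.00318) and Kdm4b, a histone demethylase, from 50.7 ± 9.37 to 25.9 ± 1.76 CPM (−0.97, adjusted p = 0.00154).

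Lipoate is the swinging arm of the 2-oxoglutarate and pyruvate dehydrogenases, and iron-sulfur clusters serve succinate dehydrogenase and lipoate synthesis. This list had 3 of 10 genes called lower and 1 higher (median −0.15). Lipt2, which attaches lipoate precursors, went from 1.84 ± 0.664 to 0.644 ± 0.106 CPM (log2 fold change −1.54, edgeR adjusted p = 0.0112) and Iba57, a late cluster assembly factor, from 14.2 ± 0.876 to 9.19 ± 0.701 CPM (−0.63, adjusted p = 0.0115). Without KO replicate 2 both calls were lost (adjusted p = 0.0544 and 0.0578). Nfu1, a cluster carrier, was called lower (−0.51, adjusted p = 0.0257), and the call was lost without control replicate 2 (0.0514), KO replicate 2 (0.0664) or KO replicate 3 (0.0823), with library size only (0.0563), and without replicate 3 of both groups (−0.32, adjusted p = 0.0993). Isca2 was called higher (0.36, adjusted p = 0.0478) and kept the call in 4 of 14 alternatives. It was lost without control replicate 1 (0.202), control replicate 2 (0.0877), control replicate 3 (0.161), KO replicate 2 (0.173) or KO replicate 3 (0.140).

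All 12 genes for mitochondrial import, chaperones and outer membrane channels had a log2 fold change below 0, as did 7039 of the 14268 tested genes. Of the 12, 6 were called lower (median −0.37). Vdac1, an outer membrane channel, held 468, 515 and 488 CPM in control replicates 1, 2 and 3 and 247, 216 and 177 CPM in KO replicates 1, 2 and 3 (log2 fold change −1.20, SE 0.144, edgeR adjusted p = 0.000489). Hspa9, the matrix chaperone that pulls in precursors such as the cycle enzymes, fell from 885 ± 84.2 to 417 ± 46.5 CPM (−1.09, adjusted p = 0.000585). Tomm40, the outer membrane import pore, fell by 0.84 (adjusted p = 0.00859) and the import receptor Tomm70a by 0.51 (adjusted p = 0.00835) on the log2 scale. RNAs encoded by mitochondrial DNA took 0.642% to 1.16% of the counts in control and 1.11% to 1.44% in KO, ranges that overlapped. Within each of the 3 pairs of equal replicate number this share was higher in KO.

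Regulators of mitochondrial genes had 5 of 13 tested members called lower and none higher (median −0.24). Ppargc1b, a coactivator of mitochondrial genes, was low in control at 4.39 ± 1.07 CPM and lower in KO at 1.04 ± 0.951 (log2 fold change −2.05, edgeR adjusted p = 0.0168), a call lost without KO replicate 2 (−1.77, adjusted p = 0.0700). With 1 library left out Ppargc1b ranged from −3.07 (without KO replicate 1) to −1.68 (without KO replicate 3). Ppargc1a had no count in any library. Tfb1m, which methylates mitochondrial ribosomal RNA, fell from 12.4 ± 1.06 to 4.29 ± 1.05 CPM (−1.53, adjusted p = 0.00108). Hif1a, whose protein induces Pdk1 and restrains the entry of pyruvate, fell from 950.1 ± 242 to 455 ± 16.2 CPM (−1.06, adjusted p = 0.00197). Myc fell from 312 ± 29.5 to 187 ± 14.6 CPM (−0.73, adjusted p = 0.00193). Tfam, which packages mitochondrial DNA and was named after its values were seen, fell from 67.9 ± 7.30 to 42.0 ± 1.19 CPM (−0.69, adjusted p = 0.00209).

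**Figure D4:**
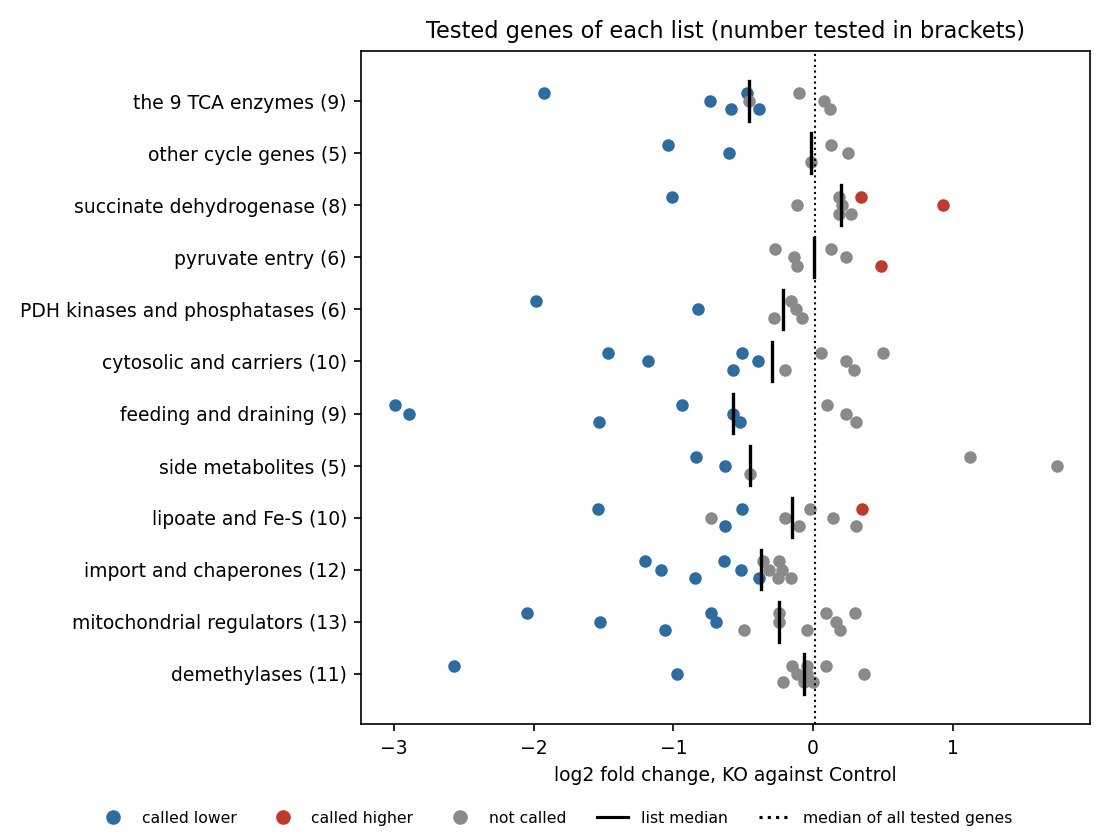
Log2 fold change of KO against Control for the tested genes of each list, with 1 point per gene, colour for the call, a bar at the list's median and a dotted line at the median of all tested genes (0.013). Points of the feeding and draining list reach −3.00 (Pck2) and −2.90 (Gpt2), beyond Idh2 at −1.93, while the succinate dehydrogenase list has its median at 0.20.

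Genes outside the 9 were ranked by how closely their level followed the mean profile of the 9 across the 6 libraries, as the root mean square distance between centred log2 CPM values. The closest were Nmt1 (0.0169), Bckdk (0.0173), Kpna3 (0.0310), Ptges3 (0.0336) and Hdac2 (0.0359). Bckdk is the kinase of the mitochondrial branched-chain 2-oxoacid dehydrogenase, and Nmt1 is a cytosolic N-myristoyltransferase. Kpna3 is an importin alpha of nuclear import, Ptges3 an Hsp90 cochaperone and Hdac2 a histone deacetylase. Since the mean profile of the 9 is lower in each KO library, genes chosen to match it are lower too, and no support is drawn from that. Their log2 fold changes ran from −0.55 (Hdac2) to −0.51 (Nmt1). Bckdk was not called without KO replicate 2 (adjusted p = 0.0563) or 3 (0.0541), nor was Ptges3 without KO replicate 3 (0.0515), and 19.6% of the stretches of Ptges3 occur in Ptges3-ps.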

How the data were processed

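The study sequenced RNA from 3 control and 3 RTF1-deficient Th17 cultures. Per the submitters' processing notes, STAR, featureCounts and DESeq2 were used with build mm10, with no role, version or setting given here. The deposited table holds raw read counts by gene symbol, which the authors had made, and neither the annotation nor a strand setting is given in the sources used here. Each column matched a sample.

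KO was compared with Control over the 6 libraries by edgeR's quasi-likelihood test (edgeR 4.0.16, R 4.3.3; no covariate), with TMM factors, filterByExpr by group and Benjamini-Hochberg adjustment over the 14268 tested genes. A call is an adjusted p-value under 0.05. The filter kept 99.9% of counts, and the biological coefficient of variation was 0.212. SE is the absolute log2 fold change over the square root of F. Log2 CPM values for profiles used a prior count of 2. The script was tested on simulated data with 50 changed genes for each size of change. It called 6% of those with a true log2 change of 0.5, 74% at 1, 98% at 2 and 48% at −1. Far fewer genes changed there than were called in these data, so the same recovery need not hold here. Coordinates, exon lengths and shared stretches of 50 bases come from GENCODE M21 (GRCm38, the assembly of mm10). The range of total counts is in the report, and counting error is only part of the uncertainty.

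The enzymes and the lists were chosen with earlier results of these data known. Genes named are the 9 enzymes, other cycle genes and succinate dehydrogenase subunits, Rtf1, up to 4 called genes with groups apart and up to 2 well counted uncalled genes per list, and the 5 closest profiles. Equal replicate numbers were read as a possible pairing of the libraries, which only the replicate block used and the main test did not. Deviations from group means correlated at 0.270, 0.130 and 0.379 for numbers 1, 2 and 3, although control replicate 2 correlated more with KO replicate 1 (0.204). What a number marks is not stated. Alternatives were the DESeq2 1.42.0 test, its size factors in edgeR, scaling by upper quartiles or by size alone, 2 other filters, each library left out, the replicate block, another gene length and, added after seeing the data, replicate 3 of both groups left out. Some genes that this rule names, and 1 ratio, are not reported here; counts over lists include those genes.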

Additional observations from a re-analysis of the deposited data

How the results depend on the processing

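The 9 enzymes kept their direction under the 14 alternatives except Idh3b and Mdh2, which turned without control replicate 3; with 1 library left out they ranged from −0.053 to 0.15 and from −0.049 to 0.24. Idh2, Suclg1 and Cs were called in all 14. With 1 library left out, 3 to 6 enzymes were called lower (3 without KO replicate 2) and none higher, and 6 were called lower with the replicate block, without a filter, and without replicate 3 of both groups. The block changed no call of the 9 except that of Idh3a. Over all genes it gave 3857 higher and 3771 lower calls, against 3305 and 3269 in the main test. Over all genes, leaving out 1 library gave 2170 (without KO replicate 2) to 3700 lower calls. Among genes of the related lists, 4 higher and 34 lower calls became 2 higher with DESeq2 size factors, 7 higher with library size only, 9 higher with the replicate block, and 1 to 6 higher and 22 to 43 lower with 1 library left out. Outside the 9, Dld turned to 0.078 with library size only, to 0.016 without replicate 3 of both groups, and ranged from −0.12 to 0.065 with 1 library left out. Idh1 turned to −0.091 without replicate 3 of both groups and ranged from −0.082 to 0.13. Glud1 ranged from −0.076 to 0.21 and Sdhb from −0.27 to 0.0097. With the longest transcript as length, shares in control and KO were 21.4% and 16.9% for Cs, 9.71% and 12.3% for Idh3b, 7.72% and 7.04% for Ogdh, 4.53% and 3.90% for Fh1, and 30.1% and 39.3% for Mdh2. The control share of Idh2 was then 4.85% and the KO share of Suclg1 5.43%. With 3 libraries a group, no exact permutation test can go below 0.1.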
